A study of Mus musculus with 21 samples.

Results

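The genes described here are 10 regulators of maternal mRNA in the mouse oocyte: Btg4, Cnot7, Cnot6l, Cpeb1, Cpeb4, Dazl, Zfp36l2, Cpsf4l, Pabpc1l and Ybx2. They were taken by symbol from a count table of 56980 genes, where each symbol matched 1 protein-coding gene, and all 10 were among the 18192 genes that passed the filter on low counts. The samples were cumulus-oocyte complexes (COCs), each an oocyte inside its shell of cumulus granulosa cells, from ovaries of WT mice whose strain and age the labels do not state. START complexes were taken at 0 h, before culture and with no treatment. The other complexes were matured in medium with 5% serum and mouse epidermal growth factor at 37 °C and 5% CO2 for 4, 8 or 12 h, with DMSO (CTL) or with 10 µM of a proprotein convertase inhibitor (PCI). Each of the 7 groups had 3 libraries that the labels call biological replicates. How many animals or complexes went into a library is not stated in the labels, and oocyte and cumulus RNA were not separated.

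A fully grown oocyte stops transcribing, so from meiotic resumption until the embryo's genome is switched on its protein output is set by which stored mRNAs are translated and which are destroyed. Much of that choice is made at the poly(A) tail. CPEB proteins bind U-rich cytoplasmic polyadenylation elements (CPEs) in the 3′ untranslated region and lead to tail lengthening and translation, while the CCR4-NOT complex, brought in by adaptors such as BTG4, shortens tails and starts decay. YBX2 packages dormant mRNA, and PABPC1L is the oocyte's poly(A)-binding protein.

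The libraries were made with a poly(A)-selecting kit. A count therefore depends on how much of a transcript was present and on whether its tail was long enough to be captured. These quantities cannot be told apart here, and neither can fewer oocytes in a library, less RNA per oocyte and more RNA from cumulus cells.

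The annotated ends of 5 of these mRNAs are printed because the CPE and the polyadenylation hexamer in them are the elements that CPEB and the cleavage factors read. The windows are on the transcript strand, from GENCODE M21 transcripts (GRCm38), and the capitals mark a CPE, spelled TTTTAT, or a hexamer, spelled AATAAA or ATTAAA. Btg4, Cnot7 and Cnot6l belong to the deadenylation machinery, and Ybx2 and Pabpc1l are 2 of the genes that fell during culture.
Btg4: agataaatccctTTTTATgtctttttaaaa
Cnot7: aggtacaTTTTATatcAATAAAaatac
Cnot6l: ttccctgtaggcAATAAAtggccattttgc
Ybx2: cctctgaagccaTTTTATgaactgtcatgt
Pabpc1l: tttgctttatatATTAAAaaatgctgcaaa
A CPE (TTTTAT or TTTTAAT, whose matches can share a base) was searched in the last 100 bases of each transcript and a hexamer in the last 50, on the transcript strand alone. Of the 9 genes with a 3′ untranslated region of at least 100 bases, 3 had a CPE (Btg4, Cnot7 and Ybx2), 6 had a hexamer (Cnot7, Cnot6l and Pabpc1l among them) and 1, Cnot7, had both. In Cnot7 the elements lay 3 bases apart. Among 13919 tested genes with such a region, 19.3% had a CPE, 79.0% a hexamer and 15.8% both. The annotated end of Cpeb4 had an untranslated region of 45 bases and was not searched. An annotated end need not be the end the oocyte uses, and a match in letters is a description.

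Total counts were 19458618 to 37491828 per library. Oocyte RNA differed between libraries of 1 group. The mean log2 CPM (counts per 1000000 reads after TMM scaling) of 20 oocyte markers, called the oocyte score here, was 8.27, 7.57 and 6.27 in the 3 START libraries and 7.15, 8.35 and 6.63 in PCI at 4 h. In CTL at 12 h it was 4.63, 4.22 and 4.59. Summed oocyte markers ranged from 4866 to 20175 CPM in START and from 2569 to 3868 CPM in CTL at 12 h, and 10 cumulus markers from 7279 to 15788 CPM and from 3422 to 4190 CPM. All 20 oocyte markers were measured. The 5 theca markers, nearly all of it Hsd3b1, summed to 149 to 1351 CPM in START and 2773 to 4375 CPM in CTL at 12 h, and their part in the changes during culture was not tested. The endothelial list summed to at most 73.0 CPM in any library and the leukocyte list to at most 24.0 CPM.

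Within groups, most of these genes followed that oocyte RNA. Deviations from the group means over the 21 libraries correlated with those of the oocyte score at 0.96 for Cpeb1, 0.947 for Pabpc1l, 0.918 for Ybx2, 0.911 for Btg4, 0.904 for Dazl, 0.847 for Cnot6l, 0.824 for Cnot7 and 0.735 for Cpsf4l. Cpeb4 (0.316) and Zfp36l2 (-0.292) did not share this pattern. The values share libraries and scaling and are a description. START replicate 3 and PCI 4 h replicate 3 were low and PCI 4 h replicate 2 was high for all 8 of the genes that followed the score. The score varied most in START and in PCI at 4 h (SD 1.02 and 0.88). Subtracting it lowered the pooled within-group SD of log2 CPM from 0.62 to 0.17 for Cpeb1. That SD went from 0.38 to 0.36 for Cnot6l and from 0.34 to 0.40 for Cnot7. How much of the Cnot7 and Cnot6l counts came from cumulus cells was not tested.

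Control culture left the genes in 3 patterns. The deadenylation genes Btg4, Cnot7 and Cnot6l and the translational activator Dazl passed no test against START, Cpeb4 rose by 4 h, and Cpeb1, Zfp36l2, Cpsf4l, Pabpc1l and Ybx2 fell by 8 and 12 h. Passing no test does not show that a gene stayed level, and the log2 fold change of Dazl at 12 h was -0.97. At 4 h, 1 of the 10 was higher and 0 were lower than in START, where 31.5% of all tested genes were called in either direction, 16.2% higher and 15.3% lower (edgeR's quasi-likelihood test, Benjamini-Hochberg adjusted p under 0.05). At 8 h 1 was higher and 5 were lower, against 41.3% of all genes called, 20.7% higher and 20.6% lower. At 12 h it was again 1 and 5, against 51.0% of all genes called, 25.1% higher and 26.0% lower. The median log2 fold change of the 10 genes at 4, 8 and 12 h was -0.09, -0.56 and -1.09, and that of all tested genes -0.05, -0.08 and -0.06. The 3 comparisons share the START libraries. All CTL libraries lay above all START libraries for 2 of the 10 at 4 h (19.9% of all genes), 1 at 8 h (24.2%) and 1 at 12 h (28.2%). They lay below for 0, 3 (23.0%) and 5 (27.0%). The count at 8 h was 3 without START replicate 1 and 3 without CTL 8 h replicate 2, and at 12 h it was 6 to 8 over the 6 left-out libraries.

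**Figure D1:**
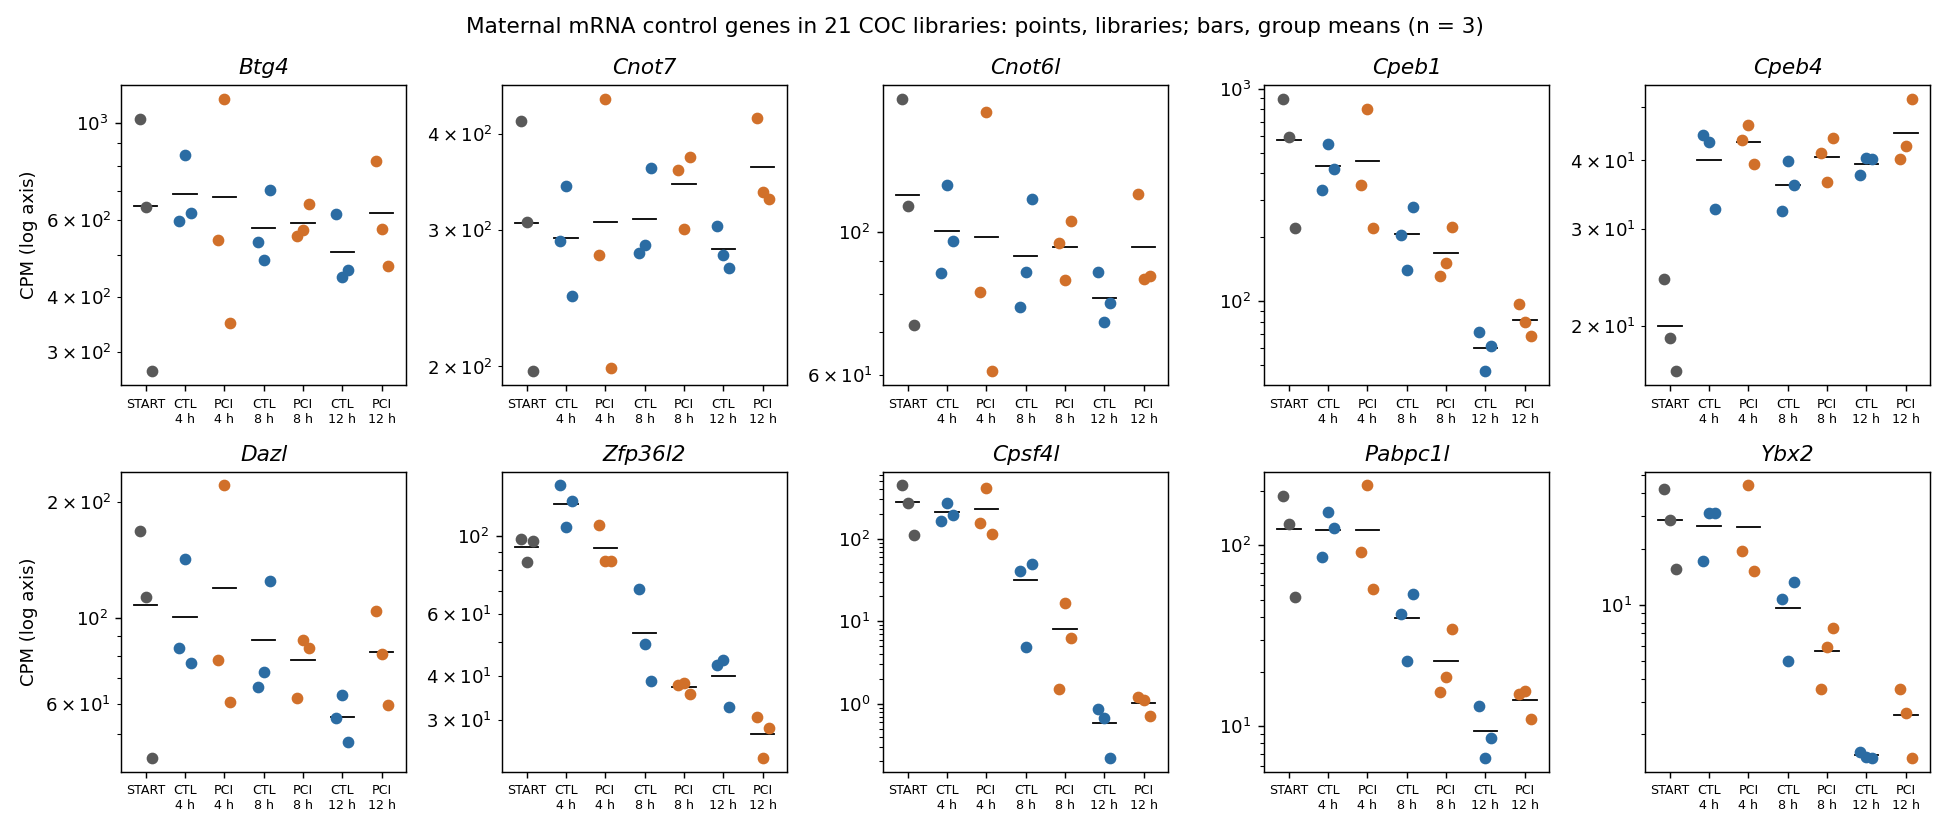
Each panel shows 1 gene as CPM on a log axis in START and in CTL (blue) and PCI (orange) at 4, 8 and 12 h, with a point per library and a bar at the group mean (n = 3). Btg4, Cnot7 and Cnot6l stay in 1 range in all 7 groups, Cpeb4 is higher in every cultured library than in START, and Cpsf4l falls from 277 CPM in START to 0.579 CPM in CTL at 12 h.

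Btg4 encodes the adaptor that recruits CCR4-NOT to maternal transcripts during meiotic maturation (Ensembl ENSMUSG00000032056, chr9:50972201-51031175, plus strand, mm39). It had 1022, 645 and 271 CPM in START and 596, 843 and 623 CPM in CTL at 4 h. It had 535, 486 and 704 CPM at 8 h and 619, 446 and 462 CPM at 12 h. The START libraries spanned the values of all later control libraries, so the groups overlapped. The mean (SD, n = 3) went from 646 ± 376 CPM before culture to 509 ± 95.7 CPM after 12 h, a log2 fold change of -0.34 ± 0.39 (SE, adjusted p = 0.482, 95% interval -1.16 to 0.47). Per kilobase of exon, Btg4 was the highest of the 10 in START (253 CPM per kb) and in CTL at 12 h (199 CPM per kb). Layn and Hoatz, on the opposite strand, overlap its locus, and they held 6441 and 68 reads over all libraries against 371504 for Btg4.

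Cnot7 and Cnot6l encode catalytic deadenylase subunits of CCR4-NOT. Cnot7 (ENSMUSG00000031601, chr8:40945581-40968888, minus strand) had 415, 307 and 197 CPM in START and 304, 279 and 268 CPM in CTL at 12 h. Those 12 h libraries lay inside the START range. Its log2 fold changes at 4, 8 and 12 h were -0.06 ± 0.25, 0.01 ± 0.25 and -0.11 ± 0.25 (adjusted p = 0.915, 0.970 and 0.732). Vps37a and Zdhhc2 overlap Cnot7 on the opposite strand, with 41435 and 19575 reads over all libraries against 188637 for Cnot7. Cnot6l (ENSMUSG00000034724, chr5:96218192-96312030, minus strand) had 160, 109 and 71.8 CPM in START and 86.7, 72.5 and 77.6 CPM in CTL at 12 h. It overlapped START at every time, with log2 fold changes of -0.18 ± 0.29, -0.31 ± 0.29 and -0.53 ± 0.29 (adjusted p = 0.740, 0.404 and 0.131). Without START replicate 3, the START library lowest in oocyte RNA, the 12 h value of Cnot6l was -0.70 with adjusted p = 0.0474.

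Of 18 other deadenylase genes fixed as a list, 0 were higher and 7 lower at 12 h, with a median log2 fold change of -0.38. This list is among 5 related lists described here. Together 38 of their 76 genes were called at 12 h (50%), against 51.0% of all genes, so their share was near that of all genes. Cnot10 and Cnot3, further subunits of CCR4-NOT, fell by 0.79 ± 0.12 and 0.75 ± 0.18. Cnot6, a catalytic paralog of Cnot6l, fell by 1.09 ± 0.19, and Cnot4, a ubiquitin ligase of the complex, by 0.84 ± 0.20. Cnot6 was already lower at 4 h, when its mean was 242 ± 41.2 CPM against 587 ± 199.5 CPM in START.

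The 2 CPEB genes moved in opposite directions. Cpeb1 encodes the CPE-binding protein that controls the first translation of stored mRNAs at meiotic resumption (ENSMUSG00000025586, chr7:80996774-81105213, minus strand). The START libraries had 899, 593 and 220 CPM and the CTL libraries of 4 h had 334, 551 and 417 CPM. Those of 8 h had 204, 140 and 277 CPM and those of 12 h 71.6, 46.6 and 61.2 CPM. The 12 h libraries lay below every START library, while those of 8 h still overlapped the lowest START library. Cpeb1 fell by 1.46 ± 0.44 at 8 h (adjusted p = 0.0125) and by 3.25 ± 0.47 at 12 h (adjusted p = 1.56e-05), which is 9.54-fold lower. Over the left-out libraries the 12 h value was -3.57 to -2.71 and remained called in all 6, while the 8 h value was called in 4 of 6.

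Cpeb4, a paralog that in Xenopus oocytes takes over from CPEB1 late in meiosis, went the other way (ENSMUSG00000020300, chr11:31822211-31885634, plus strand). It had 24.4, 19.0 and 16.5 CPM in START and 44.4, 43.2 and 32.6 CPM in CTL at 4 h. It had 32.4, 39.9 and 36.0 CPM at 8 h and 37.6, 40.4 and 40.3 CPM at 12 h. Every cultured control library was above every START library. Cpeb4 rose by 1.00 ± 0.17 at 4 h (adjusted p = 8.38e-05), 0.85 ± 0.16 at 8 h (adjusted p = 4e-04) and 0.98 ± 0.17 at 12 h (adjusted p = 7.36e-05), and it was called without any 1 library. From 4 h to 12 h its mean stayed between 36.1 and 40.1 CPM.

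The ratio of Cpeb1 to Cpeb4 within a library does not depend on how libraries are scaled. It can still vary with the share of oocyte RNA in the library. Within groups Cpeb1 followed the oocyte score (r = 0.96) and Cpeb4 did not (r = 0.316), and the part of oocyte RNA in the ratio was not tested. Per kilobase of exon, the ratio was 56.0, 47.4 and 20.2 in START and 11.4, 19.4 and 19.4 in CTL at 4 h. It was 9.56, 5.32 and 11.7 at 8 h and 2.89, 1.75 and 2.31 at 12 h. The 12 h libraries were below all earlier control libraries and the 8 h libraries overlapped those of 4 h by 1 library, and Cpeb1 was still the more abundant of the pair per kilobase in every library. PCI libraries had 12.2, 26.2 and 8.54 at 4 h, 4.83, 6.28 and 7.74 at 8 h and 3.66, 2.85 and 2.00 at 12 h, which overlapped the control libraries at each time. How much of the Cpeb4 count came from cumulus cells was not tested.

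Of 16 other genes of cytoplasmic and nuclear polyadenylation, 3 were higher and 6 lower at 12 h, with a median log2 fold change of -0.04. Pabpc4, a cytoplasmic poly(A)-binding protein, fell by 1.68 ± 0.28, and Fip1l1 and Cpsf4, subunits of the cleavage and polyadenylation factor CPSF, by 1.34 ± 0.22 and 0.79 ± 0.13. Cpsf2, another CPSF subunit, rose by 0.69 ± 0.14.

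Dazl encodes a germ cell RNA-binding protein that activates translation of maternal mRNAs during maturation (ENSMUSG00000010592, chr17:50586423-50600664, minus strand). It had 168, 114 and 43.4 CPM in START and 83.8, 142 and 76.4 CPM in CTL at 4 h. It had 66.3, 72.7 and 125 CPM at 8 h and 55.2, 63.3 and 47.8 CPM at 12 h. START replicate 3 lay below all 12 h libraries, and the other 2 START libraries lay above them. The log2 fold change at 12 h was -0.97 ± 0.45 (adjusted p = 0.0797, 95% interval -1.91 to -0.03). Without START replicate 3 it was -1.27 with adjusted p = 0.0182.

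Zfp36l2 encodes a zinc finger protein that binds AU-rich elements and promotes mRNA decay, and mouse oocytes need it to mature (ENSMUSG00000045817, chr17:84491359-84495375, minus strand). It had 98.3, 84.5 and 96.9 CPM in START and 139, 106 and 126 CPM in CTL at 4 h. It had 70.7, 49.6 and 38.9 CPM at 8 h and 43.2, 44.5 and 32.8 CPM at 12 h. The 4 h libraries were all above START, but the difference of 0.41 ± 0.19 did not pass (adjusted p = 0.107), and the 8 h and 12 h libraries were all below START. Zfp36l2 fell by 0.81 ± 0.19 at 8 h (adjusted p = 0.00184) and by 1.21 ± 0.19 at 12 h (adjusted p = 3.24e-05). From 4 h to 8 h it fell by 1.22 ± 0.19 (adjusted p = 0.000235). Its libraries agreed closely in START (93.3 ± 7.63 CPM, SD, n = 3) although oocyte markers differed widely there.

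Of 19 other decay genes, 6 were higher and 4 lower at 12 h, with a median log2 fold change of -0.05. Tut4, a terminal uridylyltransferase that marks short-tailed mRNA for decay, fell by 1.00 ± 0.16, and the decapping enzyme gene Dcp2 by 1.25 ± 0.27. Edc3, an enhancer of decapping, and Tut7, the partner of Tut4, rose by 1.15 ± 0.23 and 0.45 ± 0.13.

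The 3 genes left to describe fell furthest. Cpsf4l is a paralog of the CPSF subunit gene Cpsf4 (ENSMUSG00000018727, chr11:113588998-113600843, minus strand). It had 446, 274 and 112 CPM in START and 166, 270 and 196 CPM in CTL at 4 h. It had 40.9, 4.94 and 49.6 CPM at 8 h and 0.852, 0.666 and 0.219 CPM at 12 h. All 8 h and 12 h libraries were below START, and CTL 8 h replicate 2 was far below the other 2 of its group. The counts behind the 12 h values were 27, 25 and 5 reads. Cpsf4l fell by 3.12 ± 0.76 at 8 h (adjusted p = 0.00294) and by 8.83 ± 1.04 at 12 h (adjusted p = 1.37e-06), and only 13 of 18192 genes had a lower log2 fold change at 12 h. None of the 20 oocyte markers fell as far as Cpsf4l, while 10 of them fell further than Pabpc1l, 9 further than Ybx2 and 11 further than Cpeb1.

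Pabpc1l (ENSMUSG00000054582, chr2:163867370-163892458, plus strand) had 187, 132 and 51.6 CPM in START and 86.0, 153 and 125 CPM in CTL at 4 h. It had 41.8, 22.9 and 53.7 CPM at 8 h and 13.0, 6.64 and 8.54 CPM at 12 h. The 12 h libraries were all below START, and 1 library of 8 h still overlapped START. Pabpc1l fell by 1.64 ± 0.48 at 8 h (adjusted p = 0.0100) and by 3.72 ± 0.52 at 12 h (adjusted p = 1.13e-05). Pabpc1, its somatic paralog, had 232 ± 62.3 CPM before culture and 369 ± 39.5 CPM after 12 h (log2 fold change 0.67 ± 0.21, adjusted p = 0.0106). Pabpc1 had risen by 1.04 ± 0.21 at 4 h (adjusted p = 0.000602), when Pabpc1l was at -0.02 ± 0.47, and it was not called in either later interval. It is named here as that paralog, after its values were seen, and the part of cumulus cells in its count was not tested.

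Ybx2 (ENSMUSG00000018554, chr11:69826622-69832431, plus strand) had 41.9, 28.7 and 15.5 CPM in START and 17.2, 31.3 and 31.1 CPM in CTL at 4 h. It had 10.7, 4.94 and 13.2 CPM at 8 h and 1.61, 1.52 and 1.49 CPM at 12 h. Every library of 8 and 12 h was below every START library. Ybx2 fell by 1.57 ± 0.45 at 8 h (adjusted p = 0.00869) and by 4.22 ± 0.51 at 12 h (adjusted p = 1.92e-06). Ybx1, the widely expressed paralog, rose by 1.56 ± 0.22 at 12 h, and how much of its count came from cumulus cells was not tested.

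Ybx1 was 1 of 16 other mRNA storage genes, of which 2 were higher and 7 lower at 12 h, with a median log2 fold change of -0.34. Zar1l, which with Zar1 binds maternal mRNA in oocytes, fell by 6.53 ± 0.79, the oocyte cap-binding protein gene Eif4e1b by 3.48 ± 0.51 and Patl2, an oocyte repressor of translation, by 4.34 ± 0.72. The 7 genes whose mRNAs are known targets of cytoplasmic polyadenylation had 0 higher and 3 lower at 12 h, with a median of -0.52. The cyclin gene Ccnb1 fell by 0.65 ± 0.26, the spindle gene Tpx2 by 0.52 ± 0.17 and the meiotic kinase gene Wee2 by 1.10 ± 0.42. For Orc6, of the origin recognition complex, the value was -0.44 ± 0.19 (adjusted p = 0.0663).

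**Figure D2:**
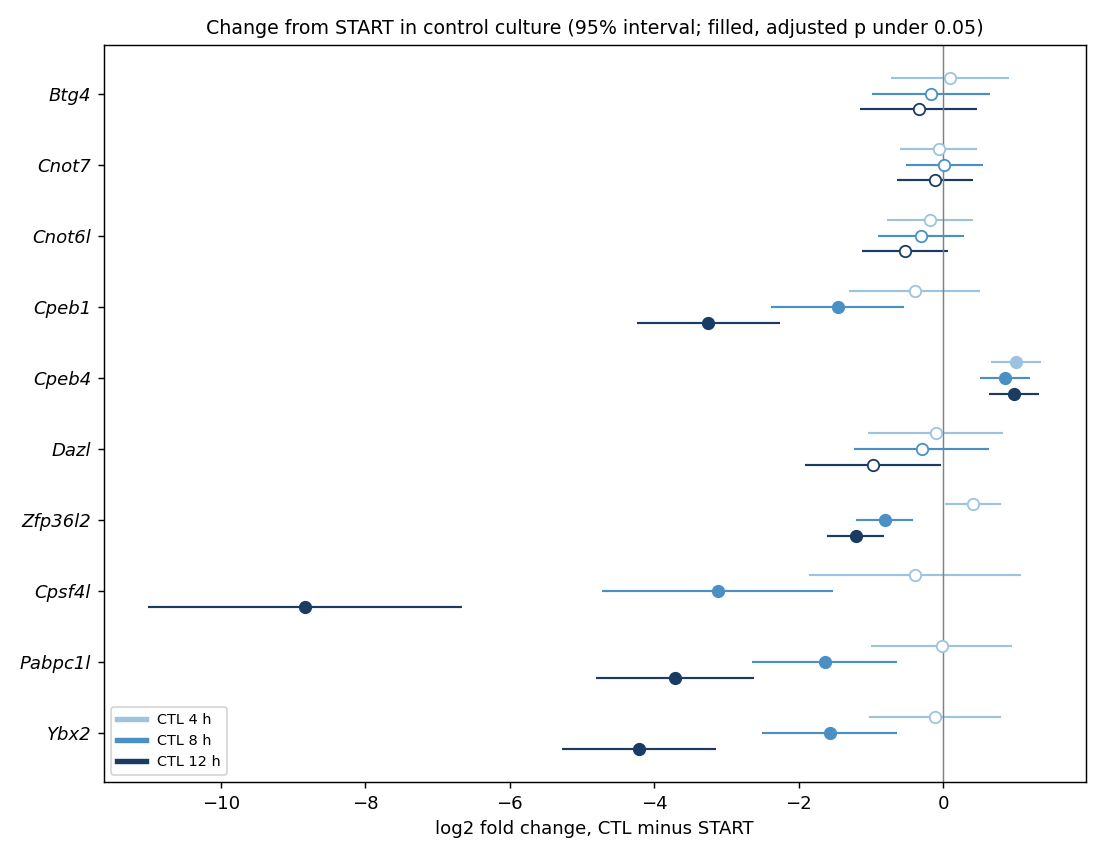
Log2 fold changes of the 10 genes between CTL and START (horizontal axis) with their 95% intervals are shown at 4, 8 and 12 h, filled where the adjusted p was under 0.05. At 12 h values run from -8.83 for Cpsf4l to 0.98 for Cpeb4, and the intervals of Btg4, Cnot7 and Cnot6l include 0 at each time.

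The falls were spread over both later intervals. Between CTL at 4 h and 8 h, 0 of the 10 were higher and 4 lower (Zfp36l2, Cpsf4l, Pabpc1l and Ybx2), where 23.2% of all genes were called, 12.1% higher and 11.1% lower. All 8 h libraries lay below those of 4 h for 5 of the 10, and for 23.2% of all genes. Between CTL at 8 h and 12 h it was again 0 and 4 (Cpeb1, Cpsf4l, Pabpc1l and Ybx2), where 8.80% of all genes were called, 4.63% higher and 4.17% lower. All 12 h libraries lay below those of 8 h for 5 of the 10, and for 17.0% of all genes. In that interval Cpsf4l fell by 5.71 ± 0.94, Ybx2 by 2.64 ± 0.48, Pabpc1l by 2.07 ± 0.49 and Cpeb1 by 1.79 ± 0.45. Zfp36l2 had -0.40 ± 0.19 there and was not called (adjusted p = 0.203). The oocyte score was 6.12 to 7.16 in CTL at 8 h and 4.22 to 4.63 in CTL at 12 h. As a covariate it cannot be told apart from time in this interval. With the oocyte score as a covariate none of these 4 falls between 8 h and 12 h was called. Cpsf4l was then at -2.70, Ybx2 at -0.63, Pabpc1l at 0.16 and Cpeb1 at 0.29, and 4 other genes (Btg4, Cnot6l, Cnot7 and Dazl) were called higher. The first count was 2 without CTL 4 h replicate 2, 2 without CTL 8 h replicate 1 and 1 without CTL 8 h replicate 2. The second was 2 without CTL 8 h replicate 1 or 3 and 2 without CTL 12 h replicate 2 or 3.

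Oocyte markers fell in the same libraries. Of the 20, 0 were lower at 4 h, 8 at 8 h and 16 at 12 h. The shares of all genes called lower at those times were 15.3%, 20.6% and 26.0%. At 8 h 1 marker was called higher, and at 4 and 12 h 0 were. The median log2 fold change of the markers at 12 h was -3.66, from -5.79 for Nobox to 0.55 for Sohlh1. Each gene was therefore also set against them, as its log2 CPM minus the oocyte score of the same library. On that scale Btg4 was at 1.77 ± 0.04 in START and 4.49 ± 0.21 in CTL at 12 h (SD, n = 3), Cnot7 at 0.83 ± 0.48 and 3.66 ± 0.22, and Cnot6l at -0.61 ± 0.45 and 1.82 ± 0.14. Dazl was at -0.81 ± 0.07 and 1.30 ± 0.41. These 4 genes thus ended higher relative to the marker list, by more than the spread of libraries. Cpeb4 went from -3.06 ± 0.75 to 0.82 ± 0.27 and Zfp36l2 from -0.83 ± 1.03 to 0.84 ± 0.41, so both also ended higher. On this scale a gene that does not change rises when the markers fall.

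Cpeb1 was at 1.57 ± 0.07 in START, 1.30 ± 0.03 in CTL at 4 h, 1.00 ± 0.05 at 8 h and 1.40 ± 0.11 at 12 h. Its 4 h and 8 h libraries lay below all START libraries on this scale. Pabpc1l went from -0.61 ± 0.10 to -1.30 ± 0.32 and Ybx2 from -2.64 ± 0.29 to -3.80 ± 0.22. Cpsf4l went from 0.53 ± 0.01 to -5.27 ± 0.97, further down than the list. Scaled by the oocyte marker list in place of TMM, an alternative added after the data were seen, the median of all genes moved to 2.88 between START and CTL at 12 h. On that scaling Cpeb1 was at 0.15 ± 0.36, Zfp36l2 turned to 1.72 ± 0.61, Pabpc1l was at -0.35 ± 0.38 (adjusted p = 0.391), and Ybx2 and Cpsf4l were still lower, at -0.92 ± 0.41 and -5.40 ± 0.77. Relative to the shift of all genes, Btg4 at 3.06 ± 0.43, Cnot7 at 3.09 ± 0.48, Cnot6l at 2.68 ± 0.45 and Dazl at 2.48 lay near the median gene. With the oocyte score as a covariate instead, Cpeb1 and Pabpc1l were not called between START and CTL at 12 h (-0.31 and -0.62, adjusted p = 0.384 and 0.119), while Btg4, Cnot6l, Cnot7 and Dazl were called higher. The score was 6.27 to 8.27 in START and 4.22 to 4.63 in CTL at 12 h. This covariate cannot be told apart from time in that comparison.

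**Figure D3:**
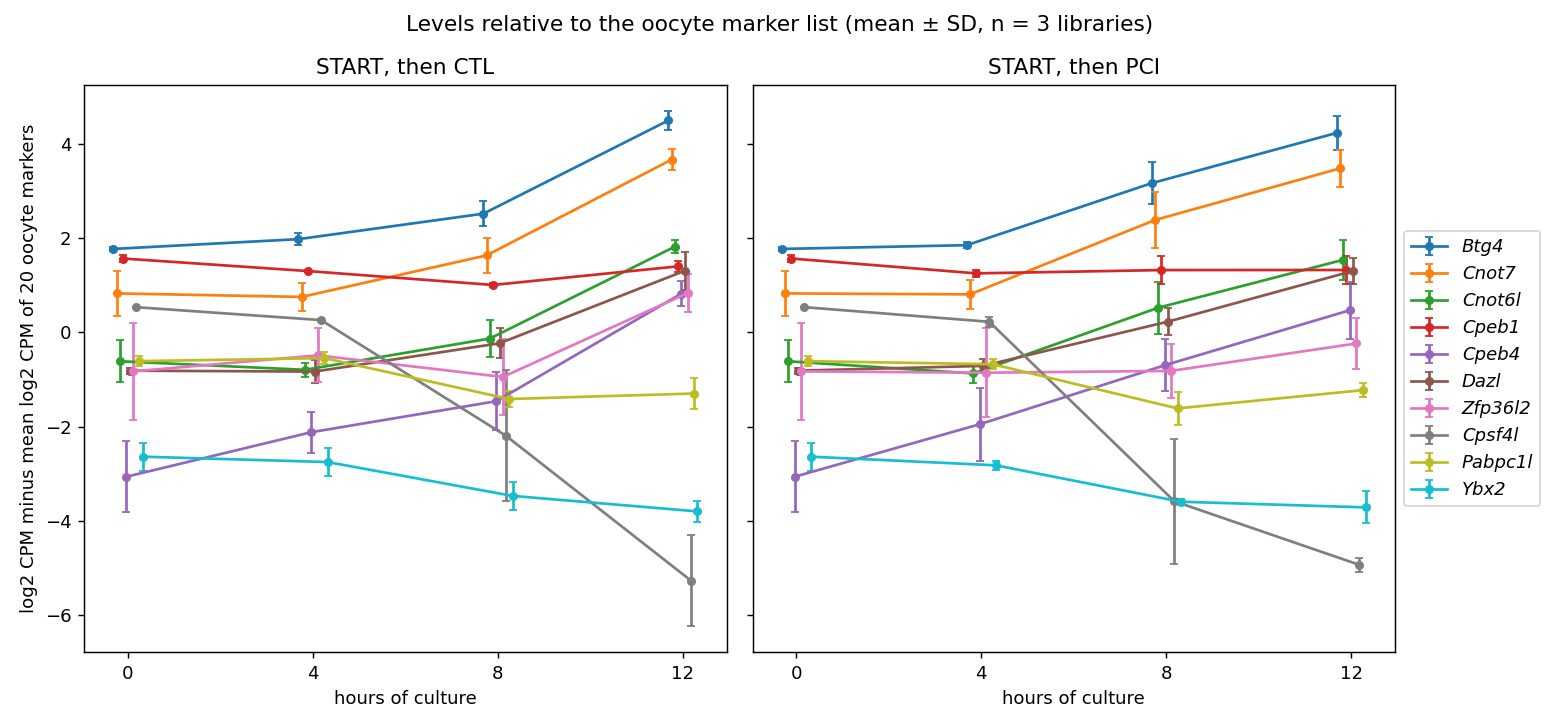
The vertical axis is log2 CPM minus the mean log2 CPM of 20 oocyte markers in the same library, plotted as mean ± SD of 3 libraries against hours of culture, for START followed by CTL (left) or PCI (right). Btg4 climbs from 1.77 to 4.49 in the control series, Cpeb1 goes from 1.57 to 1.00 at 8 h and 1.40 at 12 h, and Cpsf4l drops to -5.27.

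The order of levels changed with time. Per kilobase of exon, START had Btg4 at 253 CPM per kb, Cpeb1 at 136 and Cpsf4l at 123, then Cnot7 at 52.7, Pabpc1l at 45.3, Dazl at 28.4, Zfp36l2 at 26.4, Ybx2 at 15.2, Cnot6l at 11.0 and Cpeb4 at 3.14. The SDs of the first 3 were 147, 81.1 and 74.2 CPM per kb, a spread that the genes share. Within single libraries Btg4 was 1.87, 1.78 and 2.02 times Cpeb1, and Cpeb1 was 1.08, 1.16 and 1.05 times Cpsf4l. Of the 9 pairs of neighbours in START, Dazl and Zfp36l2 alone changed order between libraries, with ratios of 1.58, 1.25 and 0.414. In CTL at 12 h the order was Btg4 at 199 CPM per kb and Cnot7 at 48.7, then Dazl at 14.5, Cpeb1 at 14.3, Zfp36l2 at 11.4, Cnot6l at 7.65, Cpeb4 at 6.19, Pabpc1l at 3.44, Ybx2 at 0.817 and Cpsf4l at 0.258. Dazl over Cpeb1 was 0.846, 1.49 and 0.856 there and Cpeb1 over Zfp36l2 1.40, 0.881 and 1.57, so these 3 had no fixed order, while the other 7 pairs of neighbours kept theirs in all 3 libraries.

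The genes whose log2 CPM followed each of the 10 most closely over the 21 libraries, among 10468 protein-coding candidates, are given with Pearson's r as a description. All of these values share libraries, time and oocyte content. Cpeb1 was nearest to Tle6 (0.996), a subunit of the subcortical maternal complex and 1 of the oocyte markers, and to Fbxw18 (0.995). Pabpc1l was nearest to Nlrp9b (0.997) and Fbxw20 (0.992), Ybx2 to Il17rb (0.993) and Fbxw15 (0.992), and Cpsf4l to Ftdc1 and Fam151a (0.994 each).

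The other genes had neighbours with lower r. Btg4 was nearest to Slc45a3 (0.987) and Cdc42se2 (0.984), Cnot6l to Tbc1d15 (0.961) and Pdzrn4 (0.949), Cnot7 to Mbtd1 (0.969) and Rhot1 (0.963), and Dazl to Erc2 (0.972) and Meis2 (0.964). Zfp36l2 was nearest to Pparg (0.955), a nuclear receptor, and Bambi (0.954), a decoy receptor of the TGF-beta family. Cpeb4 was nearest to Trp53inp1 (0.930) and Cobll1 (0.928).

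The study compared the inhibitor with the DMSO control at each time, and 0 of the 10 genes were called at any single time. Zfp36l2 was the 1 gene called in the mean over the 3 times, a contrast added here. It had 107, 85.3 and 84.9 CPM in PCI at 4 h, 37.9, 38.3 and 35.7 CPM at 8 h and 30.6, 23.4 and 28.5 CPM at 12 h. At 8 and 12 h every PCI library was below every CTL library, and at 4 h PCI replicate 1 overlapped them. Log2 differences from CTL were -0.42 ± 0.19, -0.51 ± 0.19 and -0.55 ± 0.19 in the order of time, none of them called (adjusted p = 0.891, 0.178 and 0.194). As the mean over the 3 times Zfp36l2 was lower by 1.41-fold (log2 fold change -0.49 ± 0.11, adjusted p = 0.00735), where 6.07% of all genes were called, 2.53% higher and 3.54% lower. Leaving out each of 18 libraries gave -0.55 to -0.41, called in all 18. Scaled by the oocyte marker list the value was as large, at -0.49, with a wider SE of 0.34, and was not called.

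The oocyte score was 7.43 ± 0.37 in CTL and 7.38 ± 0.88 in PCI at 4 h, 6.63 ± 0.52 and 6.04 ± 0.54 at 8 h, and 4.48 ± 0.23 and 5.01 ± 0.42 at 12 h (SD, n = 3). The 10 cumulus markers summed to 4804 ± 981 CPM in CTL and 5166 ± 211 CPM in PCI at 8 h, and to 3839 ± 388 and 2906 ± 279 CPM at 12 h. The 5 theca markers summed to 1968 ± 1154 CPM in CTL and 6859 ± 2967 CPM in PCI at 8 h, and to 3515 ± 807 and 7415 ± 1510 CPM at 12 h. Nearly all of that was Hsd3b1 (3474 ± 815 CPM in CTL and 7360 ± 1544 CPM in PCI at 12 h), while the theca-defining Cyp17a1 had means of at most 0.365 CPM and Insl3 of at most 0.0450 CPM in any group. Their part in the Zfp36l2 difference was not tested.

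No other gene of the 10 was called between PCI and CTL. The count was 0 at 4 h, where 0.132% of all genes were called (0.0110% higher and 0.121% lower). It was 0 at 8 h, where 3.67% were called (1.95% higher and 1.72% lower), and 0 at 12 h, where 1.98% were (0.588% higher and 1.40% lower). All PCI libraries lay below all CTL libraries for 1 of the 10 at 8 h (11.7% of all genes) and 1 at 12 h (11.2%), Zfp36l2 each time, and above them for 1 at 12 h (10.0%), Cnot7. At an unadjusted p under 0.05 there were 1, 2 and 1 of the 10, against 4.99%, 14.3% and 10.8% of all genes, and DESeq2 called 0 at each time. The second gene at 8 h was Cpsf4l, with 1.49, 16.8 and 6.23 CPM in PCI against 40.9, 4.94 and 49.6 CPM in CTL, a log2 fold change of -1.94 ± 0.74 (adjusted p = 0.200). Those groups overlapped through CTL replicate 2. At 12 h Cpsf4l was at 1.21, 1.11 and 0.718 CPM in PCI, and its difference from CTL was 0.78 ± 1.02.

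At 12 h 9 of the 10 fitted differences were above 0, all but that of Zfp36l2. The median of the 10 was 0.40 and that of all tested genes 0.03. Most of the 9 followed the oocyte score within groups, so they are not separate observations. The oocyte marker list had a median of 0.51 at 12 h and -0.42 at 8 h with 0 genes called at either time. How far oocyte RNA carried the 9 was not tested. Cnot7 had 419, 336 and 330 CPM in PCI and 304, 279 and 268 CPM in CTL at 12 h, and all PCI libraries were above CTL. Its difference of 0.35 ± 0.25 was not called (adjusted p = 0.774, 95% interval -0.18 to 0.88). Btg4 had 821, 573 and 473 CPM in PCI at 12 h, which overlapped CTL (0.29 ± 0.39, 95% interval -0.52 to 1.10). Averaged over the times, the 95% intervals were -0.37 to 0.57 for Btg4, -0.25 to 0.44 for Cnot6l, -0.12 to 0.50 for Cnot7, -0.04 to 0.35 for Cpeb4 and -0.45 to 0.60 for Cpeb1. For Dazl, Pabpc1l and Ybx2 they were -0.33 to 0.75, -0.65 to 0.50 and -0.58 to 0.55, and for Cpsf4l -1.36 to 0.66. Differences inside these bounds are those the intervals do not exclude.

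**Figure D4:**
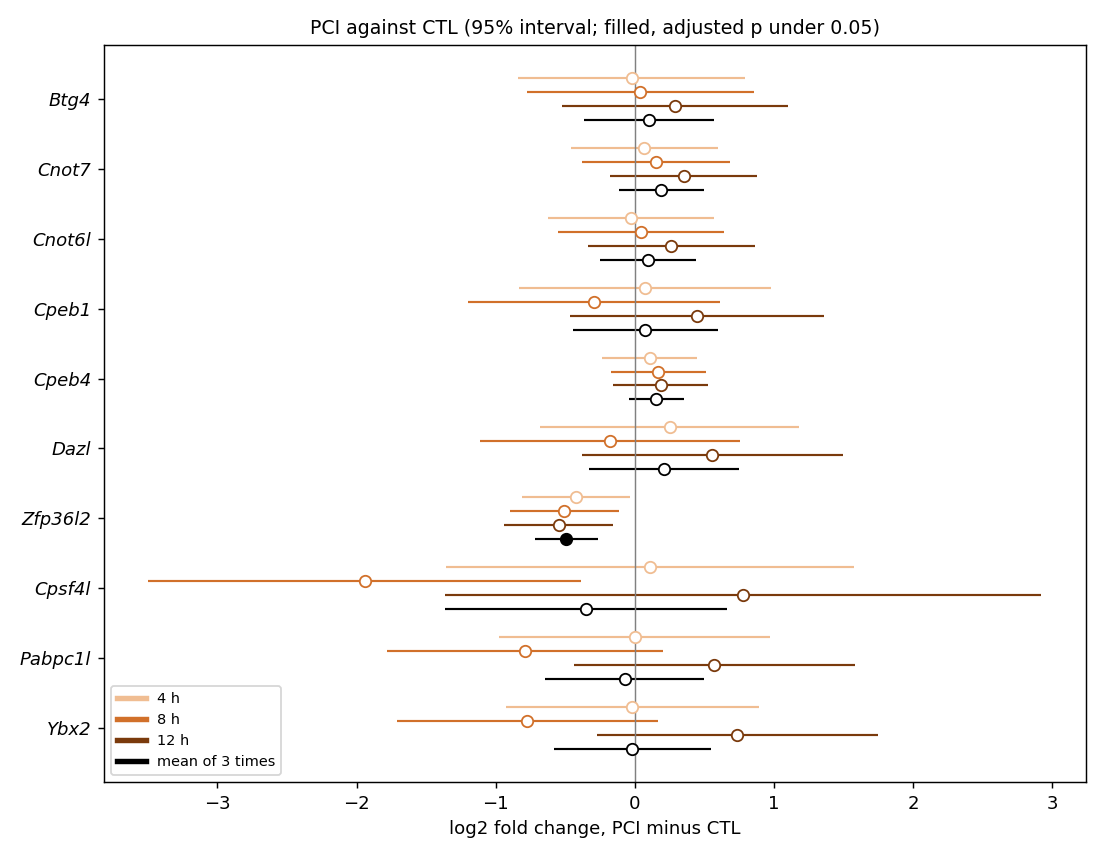
Log2 fold changes between PCI and CTL (horizontal axis) are shown with 95% intervals for the 10 genes at 4, 8 and 12 h and as the mean of the 3 times (black), filled where the adjusted p was under 0.05. The mean for Zfp36l2, -0.49, is the 1 filled point, and the widest intervals belong to Cpsf4l.

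The same intervals were compared in the inhibitor series. Whether a step from 4 h to 8 h or from 8 h to 12 h differed between the arms was not tested. Cpsf4l had -2.73 and then -5.71 in CTL against -4.78 and then -2.99 in PCI. Zfp36l2 had -1.22 and then -0.40 in CTL against -1.31 and then -0.44 in PCI. Between PCI at 4 h and 8 h, 0 of the 10 were higher and 5 lower (Cpeb1, Zfp36l2, Cpsf4l, Pabpc1l and Ybx2), where 27.4% of all genes were called, 12.3% higher and 15.2% lower. All 8 h libraries lay below those of 4 h for 4 of the 10, and for 20.2% of all genes. Cpsf4l fell by 4.78 ± 0.83, Pabpc1l by 2.41 ± 0.49, Ybx2 by 2.21 ± 0.46, Cpeb1 by 1.44 ± 0.44 and Zfp36l2 by 1.31 ± 0.19. Between PCI at 8 h and 12 h, 0 were called, where 2.37% of all genes were (1.38% higher and 0.995% lower), 4 had an unadjusted p under 0.05 (14.1% of all genes did), and DESeq2 called 1. All 12 h libraries lay below those of 8 h for 4 of the 10, and for 10.4% of all genes. Cpsf4l had -2.99 ± 0.87 in that interval (adjusted p = 0.0774) and Ybx2 -1.13 ± 0.46 (adjusted p = 0.248). The change of the PCI effect from 4 h to 12 h was called for 0 of the 10, where 0.0715% of all genes were called (0.0330% higher and 0.0385% lower), 0 had an unadjusted p under 0.05 (6.24% of all genes did), and DESeq2 called 0.

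Of the 76 genes in the related lists 3 were called between PCI and CTL at 8 h (3.95%, against 3.67% of all genes) and 3 as the mean over the times (3.95%, against 6.07%), shares near or below those of all genes. At 4 and 12 h 0 were called. These were 4 genes in all. Btg2, an antiproliferative relative of Btg4 that also binds CCR4-NOT, had 43.4 ± 13.4 CPM in CTL and 152 ± 66.1 CPM in PCI at 8 h (log2 fold change 1.81 ± 0.34, adjusted p = 0.00473), and it was also higher as the mean over the times (0.78 ± 0.19, adjusted p = 0.0179). Btg1, a close relative of Btg2, was higher at 8 h by 0.95 ± 0.26 (adjusted p = 0.0493). Pabpc1 was lower as the mean over the times (-0.52 ± 0.12, adjusted p = 0.00935), and Tut4 was lower at 8 h (-0.66 ± 0.16, adjusted p = 0.0261) and as the mean (-0.33 ± 0.09, adjusted p = 0.0409).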

How the data were processed

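RNA was sequenced from 21 libraries of mouse cumulus-oocyte complexes, 3 in each of 7 groups. The library kit keeps strand and selects poly(A) RNA, per the labels' protocols. The authors deposited raw counts per gene. Reads were processed with cutadapt, STAR and HTSeq on mm39, per the submitters' processing notes. Versions, annotation release, strand setting and the handling of reads shared with overlapping genes or paralogs (Cnot7 with Cnot8, Cpsf4l with Cpsf4, Pabpc1l with Pabpc1) were not given in the sources used here, so counts of such genes are uncertain to that extent.

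Counts were filtered with filterByExpr (18192 of 56980 genes, at least 99.92% of the counts of each library) and scaled with TMM. The model had 1 coefficient for each group and used all 21 libraries, which left 14 residual degrees of freedom (R 4.3.3, edgeR 4.0.16, limma 3.58.1). Each contrast went through the robust quasi-likelihood test of edgeR, with Benjamini-Hochberg adjustment over 18192 genes and calls at 0.05. Every adjusted p in the text comes from this test. DESeq2 1.42.0 was an alternative. The steps were tested on simulated independent counts with changes in PCI at 8 h alone. These held no variation in oocyte RNA between libraries, so that variation was not covered. SE is the log2 fold change over the root of F, and CPM stands for counts per 1000000 reads after TMM scaling. Values of log2 CPM used a prior count of 2. Biological variation amounted to a coefficient of 29.5%. For PCI against CTL, SEs had medians of 0.324 at 4 h, 0.325 at 8 h and 0.323 at 12 h. Replicates all differed by more than sampling noise, with chi-square values of 25.4 to 305 per degree of freedom. Exon lengths and transcript ends came from GENCODE M21 (GRCm38), and gene positions from the deposited table (mm39).

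All 10 genes are named. From each related list the text names up to 4 genes with the smallest p between CTL at 12 h and START and those called between PCI and CTL, and for each of the 10 the 2 nearest in pattern with a mean of at least 5 CPM. The genes, the lists and the rules were chosen with earlier results of these data known. The alternatives were other scalings, no filter, only the libraries compared, an oocyte score as covariate, a replicate block, and leaving out each library.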

Additional observations from a re-analysis of the deposited data

How the results depend on the processing

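Counts of called genes among the 10 were within 1.5 times the reported ones under DESeq2 size factors, library size alone and the replicate block in all 12 comparisons. With the replicate block they were 1, 6 and 6 for CTL at 4, 8 and 12 h against START, 4 and 4 for the later control intervals, 0, 0, 0 and 1 for PCI against CTL at 4, 8 and 12 h and as the mean, 5 and 0 for the PCI intervals and 0 for the change of the PCI effect; the block changed no call of the 10. The labels give no shared source for a replicate number. Same-numbered PCI and CTL libraries of 1 time had correlated deviations from their group means (r 0.042 to 0.524 over 9 pairs), with 8 of the pairs over 0.1, and 16 of 18 libraries matched their own number best.

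Without the filter 1 gene was called between CTL at 4 h and 8 h. For PCI at 12 h against 8 h, 1 was called by DESeq2 and 1 with only the libraries compared. Over left-out libraries the counts were 3 to 6 for CTL 8 h against START, 1 to 4 for CTL 8 h against 4 h and 2 to 4 for CTL 12 h against 8 h. With the oocyte score as covariate 8 genes were called for PCI at 8 h against 4 h and 3 for 12 h against 8 h. That covariate kept 4 of the 6 calls of CTL 12 h against START and 0 of the 4 of CTL 12 h against 8 h. Calls lost there were Cpeb1 (-0.31) and Pabpc1l (-0.62) against START, and Cpsf4l (-2.70) and Ybx2 (-0.63) against 8 h, besides Cpeb1 and Pabpc1l, whose sign turned. Scaled by the oocyte marker list, added after the data were seen, the counts were 0 for CTL 4 h against START, 2 for CTL 8 h against START, 0 for CTL 8 h against 4 h, 7 for CTL 12 h against 8 h, 0 for the mean PCI effect and 5 for PCI 12 h against 8 h. The values of the lost calls of Cpeb4 at 4 h (0.94 ± 0.54, adjusted p = 0.383) and of Zfp36l2 in the mean PCI effect (-0.49 ± 0.34) were about as large as reported. Over all genes, the reported counts of calls, with the lowest and highest over every alternative and left-out library, were 5734 (1549 to 6905), 7506 (2660 to 8202) and 9286 (5667 to 15496) for CTL at 4, 8 and 12 h against START, and 4227 (485 to 5383) and 1601 (606 to 15047) for the later control intervals. They were 24 (0 to 109), 667 (21 to 1084) and 361 (37 to 799) for PCI against CTL at those times, 1104 (129 to 1792) for the mean, 4992 (2037 to 5744) and 432 (114 to 3517) for the PCI intervals and 13 (0 to 139) for the change of the PCI effect. For PCI against CTL, DESeq2 called 109, 1084 and 682. Scaling by the marker list moves all genes with the markers by construction, and the cause of the other changes was not tested. The oocyte score fell from 4 h to 12 h in both arms, so as a covariate it is confounded with time there. Depth limits Cpsf4l at 12 h, with 5 to 27 reads per control library.

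The sign of a log2 fold change differed from the reported one in 100 cases over the settings that keep all libraries, and in 32 of these the gene was called on at least 1 side. CTL at 4 h against START turned with the covariate for Pabpc1l (0.0655), with the marker scaling for Dazl (0.11) and Pabpc1l (0.18), with library size alone for Btg4 (-0.0405), with the replicate block for Pabpc1l (0.0089). CTL at 8 h against START turned with the covariate for Btg4 (0.59), Cnot6l (0.14) and Dazl (0.53), with the marker scaling for Btg4 (0.98), Cnot6l (0.67) and Dazl (0.83), with library size alone for Cnot7 (-0.0363), with DESeq2 size factors for Cnot7 (-0.0075), with DESeq2 for Cnot7 (-0.0075). CTL at 12 h against START turned with the covariate for Btg4 (2.13), Cnot6l (1.05), Cnot7 (1.23) and Dazl (1.88), with the marker scaling for Btg4 (3.06), Cnot6l (2.68), Cnot7 (3.09), Cpeb1 (0.15), Dazl (2.48) and Zfp36l2 (1.72). CTL at 8 h against 4 h turned with the covariate for Btg4 (0.38), Cnot6l (0.29) and Dazl (0.53), with the marker scaling for Btg4 (0.66), Cnot6l (0.80), Cpeb4 (0.79) and Dazl (0.72). CTL at 12 h against 8 h turned with the covariate for Btg4 (1.54), Cnot6l (0.91), Cnot7 (0.83), Cpeb1 (0.29), Dazl (1.35) and Pabpc1l (0.16), with the marker scaling for Btg4 (2.07), Cnot6l (2.01), Cnot7 (2.11), Cpeb1 (0.49), Dazl (1.66), Zfp36l2 (1.81) and Pabpc1l (0.23). The PCI effect at 4 h turned with the covariate for Cpeb1 (-0.0485) and Cpsf4l (-0.0202), with the marker scaling for Cpeb1 (-0.0895) and Cpsf4l (-0.0795), with library size alone for Btg4 (0.0167), Cnot6l (0.0127), Pabpc1l (0.0355) and Ybx2 (0.0215), with DESeq2 size factors for Pabpc1l (0.0206) and Ybx2 (0.0035), with DESeq2 for Pabpc1l (0.0208) and Ybx2 (0.0038), with the replicate block for Cpsf4l (-0.0085). The PCI effect at 8 h turned with the covariate for Cpeb1 (0.30) and Dazl (0.40), with the marker scaling for Cpeb1 (0.13) and Dazl (0.25), with library size alone for Btg4 (-0.0099) and Cnot6l (-0.0041), with no filter for Btg4 (-0.0015). The PCI effect at 12 h turned with the covariate for Btg4 (-0.14), Cnot6l (-0.0100), Cpeb1 (-0.0368) and Cpsf4l (-0.0219), with the marker scaling for Btg4 (-0.25), Cnot6l (-0.23), Cnot7 (-0.15), Cpeb1 (-0.0434), Cpeb4 (-0.23) and Dazl (-0.0337). The mean PCI effect turned with the marker scaling for Cpeb1 (-0.0014). PCI at 8 h against 4 h turned with the covariate for Btg4 (1.06), Cnot6l (0.76), Cpeb1 (0.0164), Cpeb4 (0.0349) and Dazl (0.81), with the marker scaling for Btg4 (1.29), Cnot6l (1.38), Cpeb1 (0.0308), Cpeb4 (1.11) and Dazl (0.91). PCI at 12 h against 8 h turned with the covariate for Cnot6l (0.52) and Pabpc1l (0.37), with the marker scaling for Cnot6l (1.33), Cpeb1 (0.32), Zfp36l2 (0.92), Pabpc1l (0.66) and Ybx2 (0.15). The change of the PCI effect turned with the covariate for Btg4 (-0.0055), Dazl (-0.0853) and Cpsf4l (-0.0017), with the marker scaling for Btg4 (-0.0748), Cnot6l (-0.11), Cnot7 (-0.16), Cpeb4 (-0.44) and Dazl (-0.10).

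Over left-out libraries there were 95 changes of sign, 0 of them with a call on either side. Cnot6l ranged from -0.38 to 0.17 for CTL at 4 h against START, -0.50 to 0.0667 for CTL at 8 h against START, -0.29 to 0.0234 for CTL at 8 h against 4 h, -0.50 to 0.24 for the PCI effect at 4 h, -0.0731 to 0.22 for the PCI effect at 8 h, -0.0682 to 0.18 for the mean PCI effect, -0.31 to 0.44 for PCI at 8 h against 4 h and -0.19 to 0.0624 for PCI at 12 h against 8 h. Cnot7 ranged from -0.25 to 0.24 for CTL at 4 h against START, -0.14 to 0.35 for CTL at 8 h against START, -0.28 to 0.21 for CTL at 12 h against START, -0.0388 to 0.22 for CTL at 8 h against 4 h, -0.19 to 0.0056 for CTL at 12 h against 8 h, -0.29 to 0.32 for the PCI effect at 4 h, -0.0778 to 0.55 for PCI at 8 h against 4 h and -0.0753 to 0.13 for PCI at 12 h against 8 h. Cpeb1 ranged from -0.73 to 0.13 for CTL at 4 h against START, -0.60 to 0.43 for the PCI effect at 4 h and -0.15 to 0.19 for the mean PCI effect. Dazl ranged from -0.47 to 0.40 for CTL at 4 h against START, -0.67 to 0.23 for CTL at 8 h against START, -0.53 to 0.16 for CTL at 8 h against 4 h, -0.54 to 0.61 for the PCI effect at 4 h, -0.35 to 0.17 for the PCI effect at 8 h, -0.0570 to 0.33 for the mean PCI effect, -0.96 to 0.18 for PCI at 8 h against 4 h, -0.17 to 0.24 for PCI at 12 h against 8 h and -0.0704 to 1.09 for the change of the PCI effect. Cpsf4l ranged from -0.72 to 0.16 for CTL at 4 h against START and -0.64 to 0.46 for the PCI effect at 4 h. Pabpc1l ranged from -0.34 to 0.44 for CTL at 4 h against START, -0.70 to 0.36 for the PCI effect at 4 h and -0.31 to 0.0391 for the mean PCI effect. Ybx2 ranged from -0.36 to 0.29 for CTL at 4 h against START, -0.61 to 0.28 for the PCI effect at 4 h and -0.22 to 0.0825 for the mean PCI effect. Btg4 ranged from -0.23 to 0.62 for CTL at 4 h against START, -0.46 to 0.39 for CTL at 8 h against START, -0.64 to 0.21 for CTL at 12 h against START, -0.34 to 0.0014 for CTL at 12 h against 8 h, -0.62 to 0.31 for the PCI effect at 4 h, -0.0789 to 0.21 for the PCI effect at 8 h, -0.10 to 0.21 for the mean PCI effect, -0.52 to 0.43 for PCI at 8 h against 4 h, -0.20 to 0.23 for PCI at 12 h against 8 h and -0.0379 to 0.91 for the change of the PCI effect. Cpeb4 ranged from -0.0250 to 0.18 for the PCI effect at 4 h and -0.0609 to 0.21 for the change of the PCI effect.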
